A study of Mus musculus with 26 samples.

Results

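Interferon-stimulated genes and genes of the class I antigen presentation pathway were followed across all libraries of a SMYD3 perturbation experiment in C2C12 cells, an immortalised mouse myoblast line that fuses into myotubes when serum is withdrawn. The 47 genes, of 55341 gene IDs in the count files, were taken as a list of interferon-response and antigen presentation genes. The list was chosen with earlier results of these data known. Its genes were found by matching Ensembl IDs to GENCODE symbols, and all 47 matched. Short interfering RNAs (siRNAs) are double-stranded, and the question put to these genes was whether transfection, the siRNA used, a SMYD3 clone, the time in differentiation medium or the RNA extraction came with a change in innate response genes.

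Every siRNA library, siCtrl included, came from parental C2C12 cells transfected with a lipid reagent. The study's protocol has a first transfection in growth and a second a day later, when differentiation is induced, and does not say whether cells taken at 0 h had received the second. The siRNA groups were siCtrl, siSMYD3#1 and siSMYD3#2, each at 0 h (growth medium) and 24 h (differentiation medium), with 3 libraries a group, of which 2 were extracted with NucleoSpin at passage 14 and 1 with TRIzol at passage 11. Extraction and passage therefore cannot be told apart. The stable groups were CL5, which is 1 subclone carrying a retroviral HA-Flag-tagged SMYD3, and vector, the control line carrying the empty retrovirus, each at 0 h and 24 h with 2 TRIzol libraries and no siRNA. Library totals were 14315193 to 67853386 counts. The labels do not say which libraries came from separate cultures, so p-values measure the spread between these libraries.

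Cells meet double-stranded RNA through the helicases RIG-I (Ddx58) and MDA5 (Ifih1) and through Toll-like receptors in endosomes, and these signal through IRF3 and IRF7 to interferon genes. Secreted interferon acts through its receptor on factors that include STAT2 and IRF9, which bind the interferon-stimulated response element, whose core repeats the letters GAAA, in front of genes such as Isg15, the Ifit genes and the Oas genes. Class I presentation cuts peptides with the immunoproteasome, pumps them through Tap1 and Tap2, loads them with tapasin (Tapbp) and displays them on H2-K1 and H2-D1 with B2m.

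The siRNA strands are shown because they are the double-stranded RNA that these cells received. Each antisense strand is given 5′ to 3′, with its seed (bases 2 to 8) in capitals and without the DNA overhang that the SMYD3 siRNAs carry.
siSMYD3#1 antisense: gUUGGGGUcacagcuguga
siSMYD3#2 antisense: uCAAAUCUucaaucaggcu
siCtrl antisense: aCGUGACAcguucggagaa
The 3 seeds differ from each other, and all 3 RNA strands have 19 bases.

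Promoter stretches of 6 members are shown because the response element can be read in them. They come from RefSeq promoter windows (GRCm38.p6), which run from 250 bases before to 50 bases after a start site, and are written 5′ to 3′ on the strand of the gene, with each copy of the motif in capitals. The motif searched was GAAA, any 2 bases and GAAA again, or on the other strand TTTC, any 2 bases and TTTC. Overlapping copies run together.
Ifit1, chr19:34640770-34640828, plus strand: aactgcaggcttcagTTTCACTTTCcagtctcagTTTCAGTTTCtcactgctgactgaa
Ifit3, chr19:34583358-34583431, plus strand: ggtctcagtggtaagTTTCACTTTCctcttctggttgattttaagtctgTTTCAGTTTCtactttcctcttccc
Isg15, chr4:156200860-156200911, minus strand: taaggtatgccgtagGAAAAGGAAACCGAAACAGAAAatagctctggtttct
Bst2, chr8:71537572-71537617, minus strand: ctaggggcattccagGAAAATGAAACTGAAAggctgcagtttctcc
Stat2, chr10:128270261-128270300, plus strand: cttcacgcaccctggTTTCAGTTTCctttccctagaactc
B2m, chr2:122147533-122147572, plus strand: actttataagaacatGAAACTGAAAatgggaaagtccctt
A window was found for 36 of the 47 genes, and 15 of these 36 held the motif on either strand. The motif was in 3.44% of all 32851 windows and in 34.9% of the 43 member windows. A match is a description of letters and not a mapped binding site.

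The targeted gene was read first. Smyd3 stood at 20.3, 21.2 and 22.1 CPM (TMM-scaled counts relative to library size) in the siCtrl libraries at 0 h, at 17.4, 19.4 and 20.1 CPM in the libraries labelled siSMYD3#1, and at 6.41, 7.91 and 9.43 CPM in those labelled siSMYD3#2. Against siCtrl, siSMYD3#2 lowered Smyd3 by a log2 fold change of -1.41 at 0 h and -1.51 at 24 h, while the changes with siSMYD3#1 (-0.16 and -0.24) and with CL5 against vector (0.29 and 0.36) did not pass the test. Libraries are therefore named by their labels in what follows. The study measured Smyd3 RNA by qPCR and SMYD3 protein by western blot after siRNA, and reports ectopic SMYD3 protein in its stable clones. These RNA counts do not test the protein. Desmin, Myod1 and Cdh15, which mark myoblasts, were present in every library, and of the macrophage and leukocyte list Adgre1 had no count in any, Itgam at most 3 and Ptprc at most 6. The other 3 genes of that list, Cd14, Cd68 and Csf1r, were counted in all 26 libraries, with medians of 11.7, 2.80 and 0.443 CPM, and their part in the results was not tested. In bulk RNA, fewer cells of a type and less RNA per cell cannot be told apart.

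The class I molecules and tapasin were the most abundant members, while Tap2 and Tap1 ranked 19 and 22 of 47 per kilobase. Per kilobase of exon, B2m had the highest median level over the 26 libraries, 309.3 CPM per kb, followed by Tapbp (29.5), H2-K1 (22.7), H2-D1 (20.7) and the transcription factor Irf1 (13.97), on the same scale. The ranges of Tapbp, H2-K1 and H2-D1 overlapped widely between libraries, so that their order is not separated by the spread. In CPM, B2m ran from 180.2 to 360.6 over the libraries and H2-K1 from 41.6 to 131.3.

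Several antiviral effectors were close to 0. Of the 47 genes, 19 had a median of at least 1 CPM per kb and 13 had a median below 0.1 CPM per kb. Oas1a, Oas2 and Oas3, which make the activator of RNase L, had at most 3, 9 and 6 counts in any library and were at 0 in 17, 19 and 14 of the 26. Mx1, Mx2, Usp18 and Cmpk2 were also low, with at most 34, 11, 22 and 25 counts. The kinase PKR (Eif2ak2, median 46.0 CPM) and the RNA editor Adar (43.7 CPM) were readily counted, as was the ubiquitin ligase Trim25 (40.0 CPM).

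**Figure D1:**
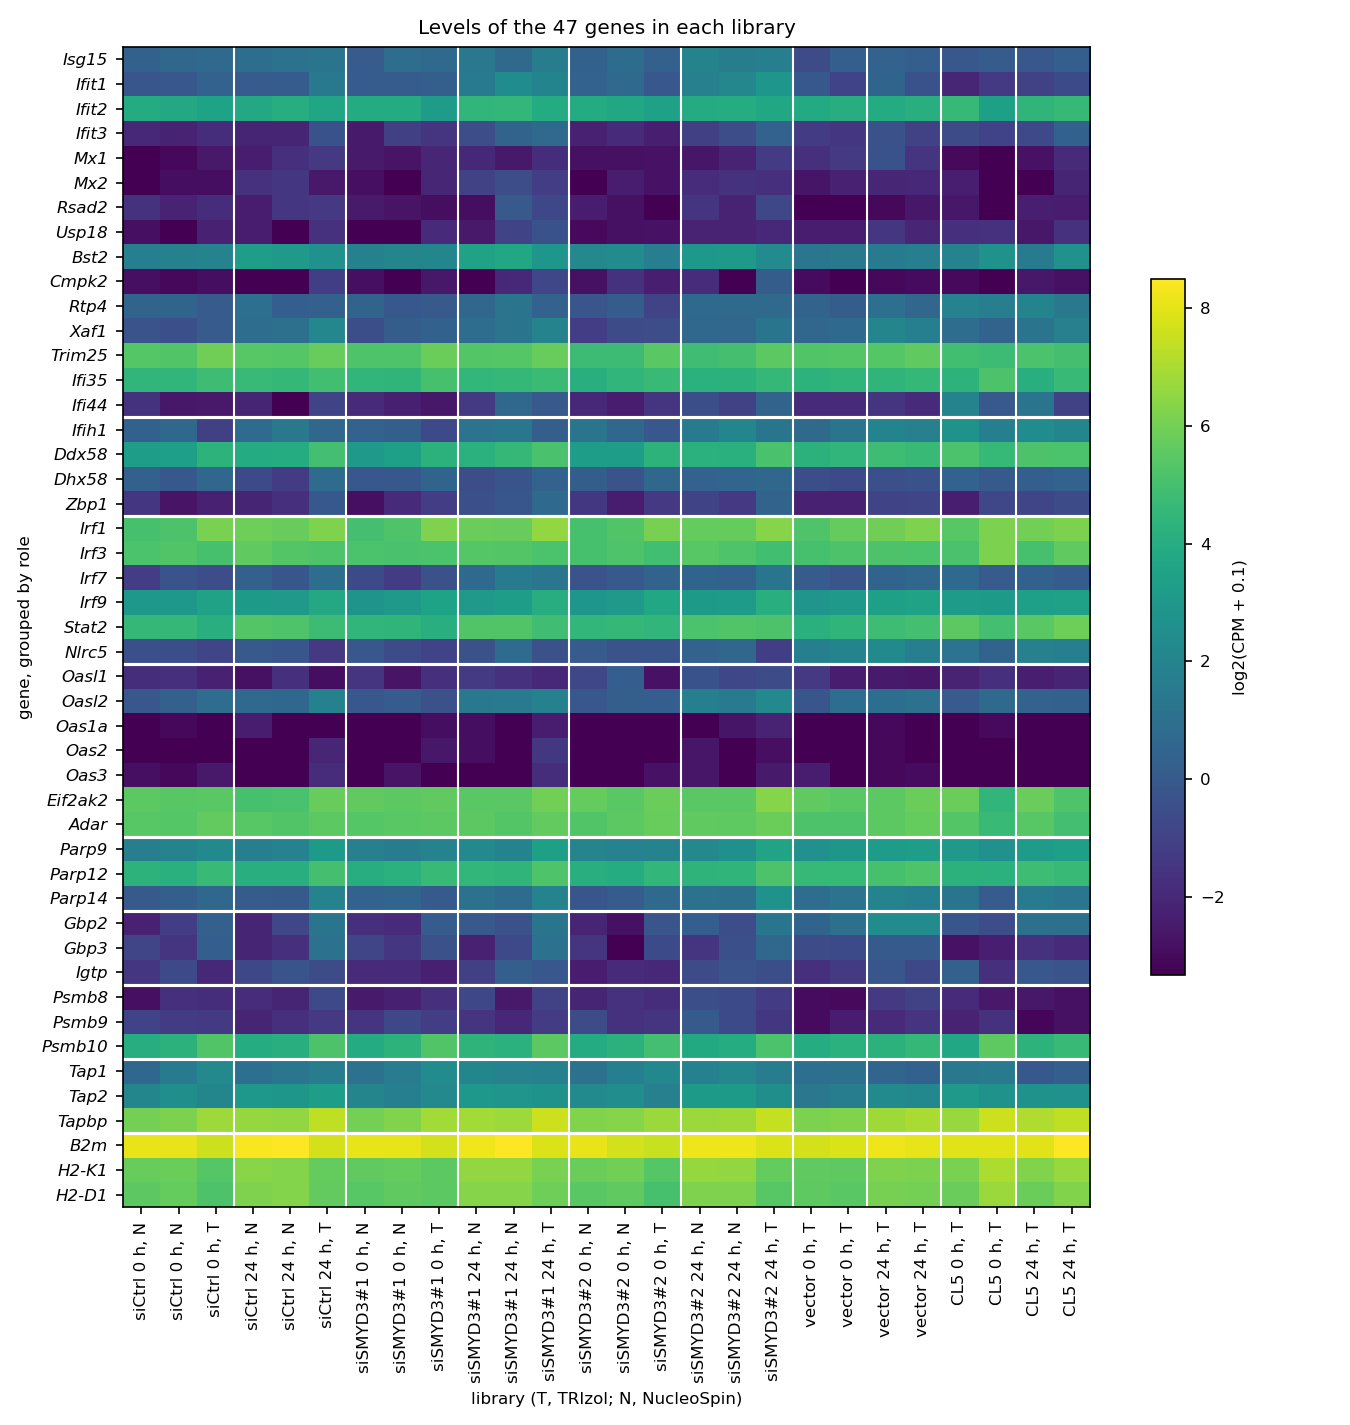
Level of each of the 47 genes, as log2(CPM + 0.1), in each of the 26 libraries; rows are grouped by role and columns by group, with T for TRIzol and N for NucleoSpin. B2m, H2-K1, H2-D1 and Tapbp are bright in every library and Oas1a, Oas2 and Oas3 are dark.

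Interferon ligands were hardly counted. Ifna1, Ifna4, Ifnl2 and Ifnl3 had 0 counts in all 26 libraries, where a count of 0 allows up to 0.0442 to 0.21 CPM depending on depth, counting error only. Ifna2 had 1 count in total, Ifnb1 had 2 and Ifng had 8. The endosomal receptors of single-stranded RNA and DNA, Tlr8 and Tlr9, had 0 and 1 counts, and Tlr7 had at most 12 in a library. Tlr3, the endosomal receptor of double-stranded RNA, was counted in all 26 libraries, with a median of 1.84 CPM and a range of 0.845 to 12.1 CPM. The type III interferon receptor gene Ifnlr1 had 14 counts in total and 0 in 19 libraries. The type I receptor genes and an adaptor were counted in every library, with medians of 83.6 CPM for Ifnar1, 23.7 CPM for Ifnar2 and 38.1 CPM for the adaptor Mavs.

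At 0 h few of these genes differed between the siRNAs. None of 40 members tested passed the threshold (edgeR quasi-likelihood test, adjusted p below 0.01) for siSMYD3#1 against siCtrl, where 1.43% of all genes tested did. 1 member passed at an unadjusted p under 0.05, and DESeq2 also called 0. For siSMYD3#2 against siCtrl 1 of 40 passed, with 0.531% of all genes and 6 members at an unadjusted p under 0.05, and it was Trim25, the ligase that activates RIG-I. The median log2 fold change over the members was -0.04 for both siRNAs.

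Trim25 was at 39.1, 41.0 and 61.5 CPM in siCtrl at 0 h and at 27.3, 27.3 and 43.7 CPM with siSMYD3#2, the highest value of each group being the TRIzol library. Within each extraction every siSMYD3#2 library was below every siCtrl library, although the groups overlap when extractions are pooled. The log2 fold change was -0.53 ± 0.09 (SE; edgeR adjusted p = 0.00333). No member was called (0 of 40) without the TRIzol siCtrl library, without 1 NucleoSpin siCtrl library, or without either NucleoSpin siSMYD3#2 library. At 24 h Trim25 was at 40.9, 43.0 and 53.8 CPM in siCtrl and at 29.2, 32.3 and 45.7 CPM with siSMYD3#2, a log2 fold change of -0.37 ± 0.09 (SE; edgeR adjusted p = 0.0141) that missed the threshold, whereas DESeq2 called it (-0.37, DESeq2 adjusted p = 0.00193). Between the siRNAs at 0 h Trim25 was also the 1 member called, higher with siSMYD3#1 by 0.45 ± 0.09 (SE; edgeR adjusted p = 0.00858), where 1.17% of all genes were called, though that call was lost without any 1 of the siSMYD3#1 libraries, either NucleoSpin siSMYD3#2 library, or 1 of several libraries outside the comparison. Between the siRNAs at 24 h 0 members and 3.36% of all genes were called in edgeR, 10 members passed at an unadjusted p under 0.05 and DESeq2 called 1, Trim25.

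At 24 h Ifit1 was the member that passed against siCtrl. Ifit1, which binds foreign RNA 5′ ends, was at 0.942, 0.998 and 2.64 CPM in siCtrl, the last being the TRIzol library. It was at 2.74, 3.94 and 5.19 CPM with siSMYD3#1 and at 3.39, 4.28 and 7.41 CPM with siSMYD3#2. Neither SMYD3 siRNA group overlapped siCtrl, although the lowest siSMYD3#1 library lay just above the highest siCtrl library.

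Ifit1 rose with siSMYD3#2 by a log2 fold change of 1.71 ± 0.33 (SE; edgeR adjusted p = 0.00294), and it was the 1 member of 40 called in that comparison, with 3.7% of all genes called. There 17 members passed at an unadjusted p under 0.05, and DESeq2 called 2, Ifit1 and Trim25. With siSMYD3#1 its change was 1.38 ± 0.33 (SE; edgeR adjusted p = 0.0101), just short of the threshold, and 0 of 40 members were called, with 5.85% of all genes. DESeq2 called 2 members there, Ifit1 and Ifit2, and 12 passed at an unadjusted p under 0.05 in edgeR. Among NucleoSpin libraries alone, Ifit1 rose with both siRNAs, by 1.98 and by 1.99. As plain log2 differences of the levels, siSMYD3#1 lay 0.56 above siCtrl in the TRIzol pair and 1.86 above it in NucleoSpin, and siSMYD3#2 lay 1.45 and 1.87 above it. The siSMYD3#2 call was lost without either NucleoSpin siCtrl library at 24 h or without either of 2 siSMYD3#2 libraries, 1 of each extraction.

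Ifit3 and Ifit2, relatives of Ifit1 on chromosome 19, did not pass. Ifit3 was at 0.133, 0.135 and 0.688 CPM in siCtrl and 0.593, 1.24 and 1.53 CPM with siSMYD3#1, a log2 fold change of 1.77 ± 0.49 (SE; edgeR adjusted p = 0.0234), and the groups overlapped through the TRIzol siCtrl library. Its counts were low, 2 to 19 in siCtrl and 16 to 49 with siSMYD3#1. Ifit2, with 12.7, 13.8 and 16.2 CPM in siCtrl and 15.3, 21.6 and 22.3 CPM with siSMYD3#1, gave 0.46 ± 0.12 (SE; edgeR adjusted p = 0.0164). With siSMYD3#2 Ifit2 lay at 13.3, 15.4 and 16.0 CPM, inside the siCtrl range. Oasl1, an OAS-like protein, was at 0.0362, 0.0448 and 0.2 CPM in siCtrl at 24 h and at 0.469, 0.564 and 0.678 CPM with siSMYD3#2. These are 1 to 3 counts, at or below the floor of 3, against 8 to 14 counts. Its log2 fold change of 2.81 ± 0.76 (SE; edgeR adjusted p = 0.0262) did not pass, and its size is poorly resolved. Oasl1 reached at most 0.215 CPM in siCtrl at 0 h and 0.296 CPM with siSMYD3#1 at 24 h. It may therefore have passed the low-count filter only through siSMYD3#2, where it is high, so its separation is a description only.

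**Figure D2:**
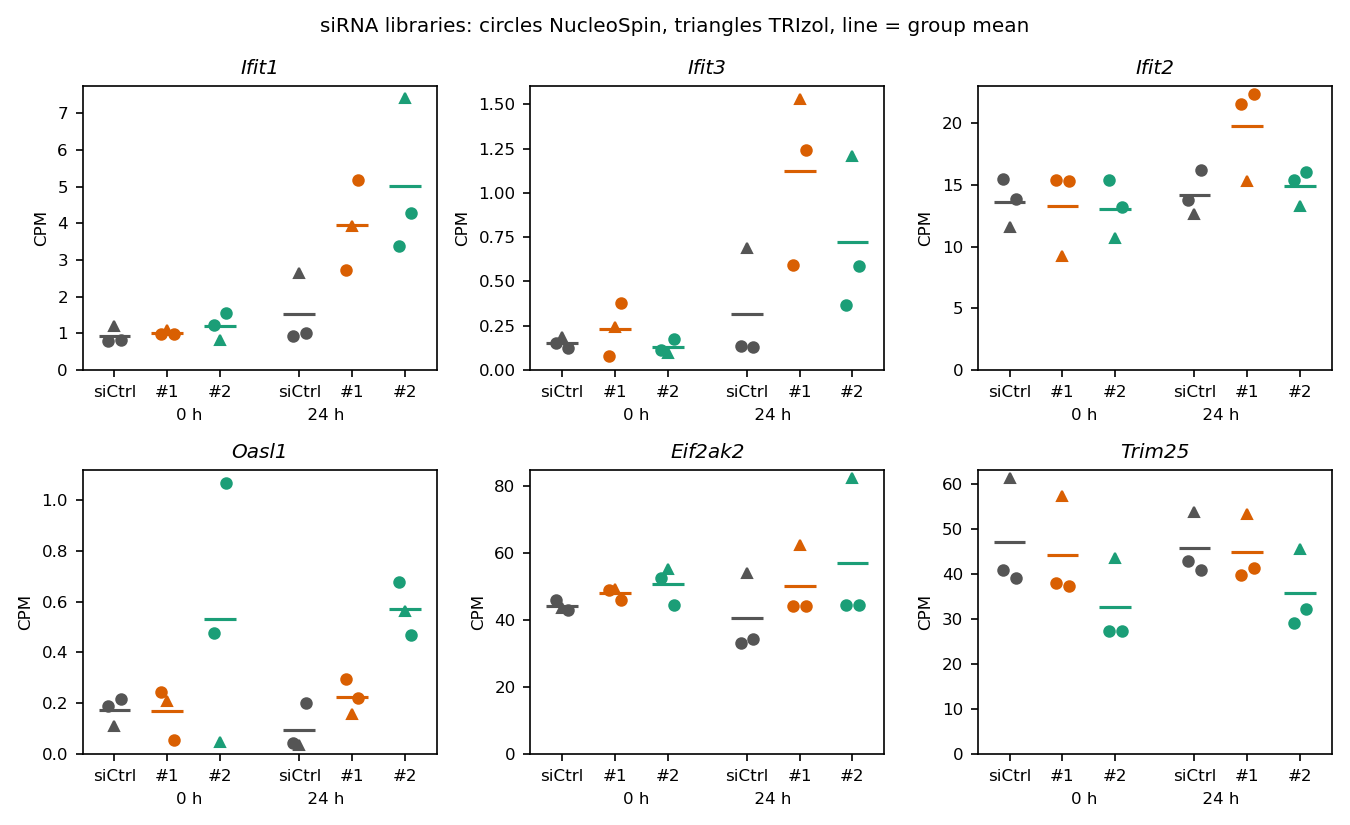
CPM of 6 members in each siRNA library at 0 h and 24 h; circles are NucleoSpin libraries, triangles TRIzol libraries and lines group means. Ifit1 with siSMYD3#2 at 24 h lies at 3.39 to 7.41 CPM, above siCtrl, and Trim25 with siSMYD3#2 lies below siCtrl within each extraction.

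Over all tested members, fold changes at 24 h leaned upward. They were positive for 34 of 40 with siSMYD3#1 and for 30 of 40 with siSMYD3#2, with median log2 fold changes of 0.30 and 0.27 against medians near 0 over all genes, and both comparisons use the same siCtrl libraries. At 0 h 17 and 18 of 40 were positive. Myog and Ckm, muscle differentiation genes, moved in the same comparisons, by -3.59 and -3.80 with siSMYD3#1 and by -1.81 and -2.26 with siSMYD3#2 on the log2 scale, and their part in these values was not tested. The difference between the 24 h and the 0 h effect passed for 0 members with either siRNA, with 0.215% of all genes for siSMYD3#1 and 0.019% for siSMYD3#2, 7 and 6 members passed at an unadjusted p under 0.05, and DESeq2 called 0 for both.

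**Figure D3:**
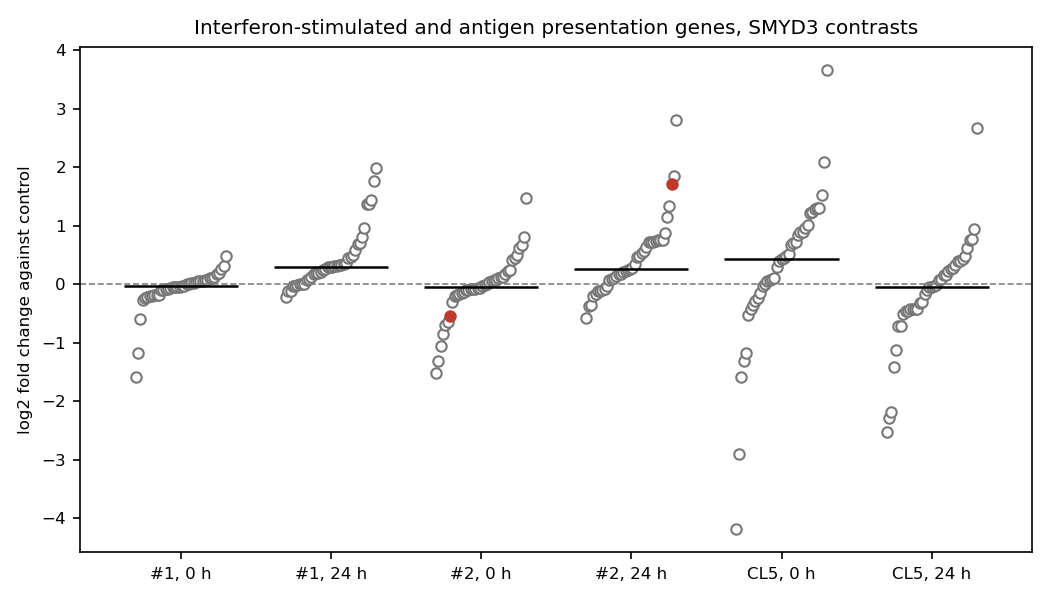
Log2 fold change of each tested member against siCtrl for both SMYD3 siRNAs and against vector for CL5, at 0 h and 24 h; red points passed an adjusted p of 0.01 and bars are medians. Trim25 at 0 h and Ifit1 at 24 h, both with siSMYD3#2, are the red points.

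Many of these genes had higher levels at 24 h than at 0 h in the siRNA libraries. Differentiation medium, and possibly the second transfection, lies between these times, and their parts cannot be told apart there. From 0 h to 24 h 10 of 40 members rose in siCtrl, 18 in siSMYD3#1 and 19 in siSMYD3#2, and 0 fell in any of them. Of all genes, 29.4%, 25.4% and 19% were called in these comparisons, and 14.6%, 12.7% and 9.11% were called higher. The siSMYD3#2 count fell to 11 or 12 without 1 of 4 of its libraries, namely either TRIzol library, 1 NucleoSpin library at 0 h or 1 at 24 h. The 3 siRNA counts were 3, 6 and 3 when extraction was left out of the fit. The members made up 0.0669 to 0.0841% of counts in siRNA libraries at 0 h and 0.0955 to 0.111% at 24 h. Without B2m, H2-K1 and H2-D1 the shares were 0.0365 to 0.0552% and 0.0467 to 0.0754%, which overlap. Within NucleoSpin these smaller shares went from 0.0365 to 0.0396% at 0 h to 0.0467 to 0.0529% at 24 h. Within TRIzol they went from 0.0531 to 0.0552% to 0.0708 to 0.0754%.

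A set of 9 members rose in all 3 siRNA conditions, namely the sensor Ddx58, the factors Irf1 and Stat2, the restriction factor Bst2 (tetherin), Xaf1, and the presentation genes Tap2, Tapbp, H2-K1 and H2-D1. Stat2 went from 17.0, 22.9 and 23.3 CPM at 0 h to 27.2, 37.8 and 40.8 CPM at 24 h in siCtrl, without overlap, by 0.75 ± 0.11 (SE; edgeR adjusted p = 2.4e-05). Bst2 went from 3.38, 3.53 and 3.75 CPM to 6.22, 8.38 and 9.69 CPM, also without overlap, by 1.18 ± 0.20 (SE). Xaf1, a proapoptotic interferon target, had the largest rise among the members called in siCtrl, from 0.645, 0.721 and 0.938 CPM to 1.75, 1.93 and 4.34 CPM, by 1.74 ± 0.26 (SE).

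The class I molecules had smaller estimates in siCtrl than Stat2, Bst2 and Xaf1, a difference that was not tested. H2-K1 went from 42.0, 54.0 and 57.1 CPM to 52.0, 77.8 and 85.3 CPM in siCtrl, where the TRIzol library was the lowest at each time, and the log2 fold change was 0.49 ± 0.12 (SE). H2-D1 gave 0.61 ± 0.12 and Tapbp 0.55 ± 0.085 (SE), and B2m gave 0.27 ± 0.10 (SE; edgeR adjusted p = 0.0425), which missed the threshold. None of the 3 immunoproteasome subunits, Psmb8, Psmb9 and Psmb10, passed in any siRNA condition. Psmb8 and Psmb9 were barely counted, with at most 28 and 24 counts in a library, so only Psmb10 (median 19.2 CPM) was well measured. The MDA5 gene Ifih1 rose in siCtrl (0.97) and siSMYD3#2 (1.10), and with siSMYD3#1 its 1.02 had an edgeR adjusted p of 0.0102.

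By role, calls in siCtrl, siSMYD3#1 and siSMYD3#2 covered 2, 6 and 6 of 11 tested ISG15-system and antiviral restriction genes, 2, 2 and 2 of 4 nucleic acid sensors, 2, 3 and 2 of 6 transcription factors, and 0, 1 and 2 of 3 interferon-inducible GTPases. Peptide loading had 2 of 3 and class I molecules 2 of 3 in each condition. The double-stranded RNA enzymes had 0, 1 and 1 of 4, and the PARP family 0, 1 and 2 of 3. The immunoproteasome had 0 of 3 in each condition. All these calls were rises, and 14.6%, 12.7% and 9.11% of all genes were called higher.

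Both SMYD3 siRNAs, and not siCtrl, had calls for 5 further members, namely Ifit1, Ifit3, Oasl2, Parp12 and the GTPase Igtp. Ifit1 rose by 1.95 and 1.99, Oasl2, an OAS-like protein, by 1.92 and 1.83, and Igtp by 2.37 and 2.26, while in siCtrl the same genes gave 0.70, 0.81 and 0.85. A call in one condition and not in another is no test of a difference, and the test of the difference between the conditions, given above, passed for none of them. Irf7 rose with siSMYD3#1 by 2.11, and Isg15 with siSMYD3#2 by 1.37, from 1.12, 1.16 and 1.69 to 3.11, 3.26 and 3.76 CPM without overlap. Every called rise had the same sign in the TRIzol pair as in the NucleoSpin libraries, but the calls come from a fit of these same libraries. Over all 40 tested members the signs matched for 28, 34 and 34 in siCtrl, siSMYD3#1 and siSMYD3#2.

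**Figure D4:**
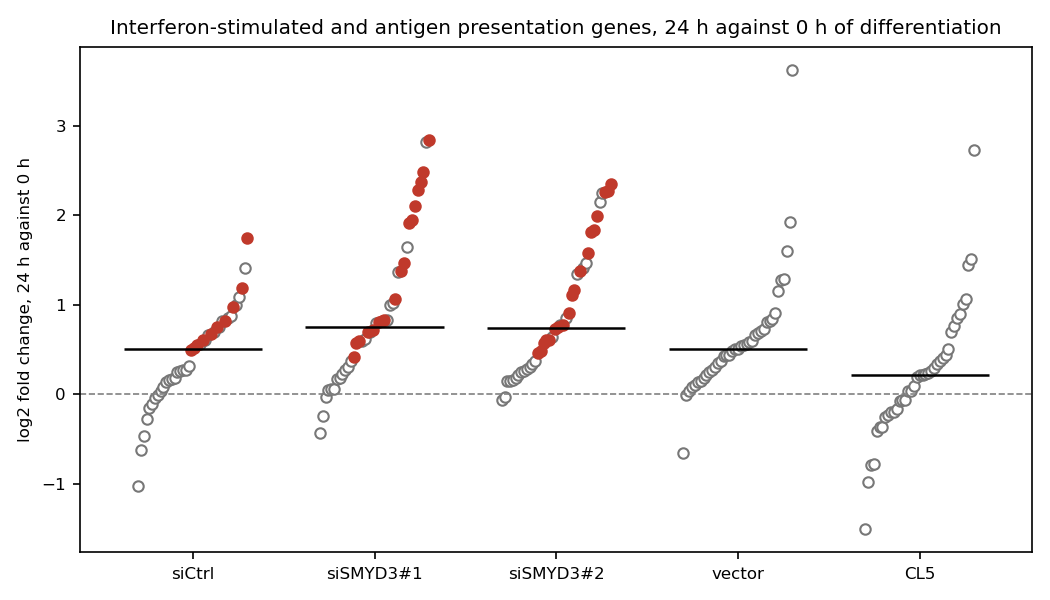
Log2 fold change of each tested member from 0 h to 24 h in the 3 siRNA conditions and in the vector and CL5 lines; red points passed an adjusted p of 0.01 and bars are medians. The siRNA conditions hold 10, 18 and 19 red points, all above 0, and the stable lines hold none.

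The stable lines, which received no siRNA, had 0 of 39 members called from 0 h to 24 h in edgeR, in vector and in CL5 alike, where 0% of all genes were called in vector and 0% in CL5. At an unadjusted p under 0.05 there were 6 members in each line, and DESeq2 called 1 in vector (Gbp2) and 0 in CL5. The fold changes were positive for 37 of 39 in vector, with a median of 0.51, beside a median of 0.50 in siCtrl. In CL5 they were positive for 24 of 39, with a median of 0.21. The median SE of a member was 0.38 here and 0.26 in siCtrl. Stat2 was at 18.1 and 21.4 CPM in vector at 0 h and at 28.4 and 30.7 CPM at 24 h, and H2-K1 went from 46.5 and 48.3 to 71.6 and 73.8 CPM, without overlap for either gene. In CL5 Stat2 was at 31.0 and 45.9 CPM at 0 h and at 44.7 and 59.1 CPM at 24 h, and H2-K1 at 69.7 and 131.3 CPM and then at 77.1 and 101.2 CPM, with overlap for both genes.

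CL5 against vector gave 0 of 39 members called at 0 h, with 1.07% of all genes, and 0 at 24 h, with 0.964%. Unadjusted p values were under 0.05 for 14 and 7 members, and DESeq2 called 3 (Ifi44, Rtp4 and Tap2, higher) and 1 (Gbp2, lower). At 0 h the 2 CL5 libraries were far apart. H2-K1 was at 69.7 and 131.3 CPM against 46.5 and 48.3 CPM in vector, and Psmb10 at 12.9 and 46.6 CPM against 15.8 and 18.6 CPM. In the CL5 library that was lower in both genes, Psmb10 lay below both vector libraries. Leaving out either CL5 library leaves 1 in that group at 0 h, so calls from such fits are not read here. Tap2, at 6.36 and 8.20 CPM against 2.48 and 3.09 CPM, and Rtp4, at 3.18 and 3.64 CPM against 1.01 and 1.24 CPM, did not overlap. Other members higher in CL5 without overlap were Ddx58, Ifih1, Dhx58, Irf9, Stat2, Ifit3, Ifi44, Usp18 and Bst2. So were Psmb8, Psmb9, Tap1, Tapbp, B2m, H2-K1 and H2-D1. Lower in CL5 without overlap were Ifit1, Mx1, Parp12, Trim25, Gbp2, Gbp3 and Nlrc5, of which Mx1 had at most 1 count in CL5. Fold changes were positive for 27 of 39 tested members at 0 h and for 17 of 39 at 24 h. The share of all genes without overlap was not counted, and groups of 2 libraries separate easily, so these separations are a description only. The difference of the CL5 effect between 24 h and 0 h passed for 0 members and for 0% of all genes, with fold changes negative for 31 of 39, a median of -0.36, 1 member at an unadjusted p under 0.05 and 0 called by DESeq2.

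Transfected siCtrl cells were set against untransfected vector cells, although line, retrovirus, cloning, passage and transfection cannot be told apart here. In a fit over all libraries, 5 of 43 members passed at 0 h, with 7.03% of all genes, and 2 of 43 at 24 h, with 6.13%. Unadjusted p values were under 0.05 for 16 and 15 members, and DESeq2 called 6 and 4. Dhx58, Irf9 and Trim25 were higher in siCtrl at 0 h, by 1.52, 0.70 and 0.58, and Ifih1 and the class I transactivator Nlrc5 were lower, by -1.72 and -3.30. Nlrc5 was at 3.37 and 3.90 CPM in vector at 0 h, at 1.26 and 2.13 CPM in CL5, and at 0.45, 0.609 and 0.645 CPM in siCtrl, and all 18 siRNA libraries lay below both vector libraries of the same time. Isg15, Ifit1 and Ifit3, common readouts of an interferon response, did not pass at either time. With TRIzol libraries only, an alternative chosen after seeing the data, 1 siCtrl library a time point remains, so that the loss of calls there says nothing of stability, and the log2 fold change of Nlrc5 was -3.03 at 0 h and -3.79 at 24 h and that of Ifih1 -2.37 and -1.41. The 0 h count was 1 to 3 without any 1 of the vector or siCtrl libraries of that time, and the 24 h count was 1 without 1 vector library.

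Many members differed with extraction and passage, as did most of the transcriptome. In siRNA libraries 25 of 40 members differed between TRIzol at passage 11 and NucleoSpin at passage 14, against 51.3% of all genes, with 18 higher and 7 lower in TRIzol. The guanylate binding proteins Gbp2 and Gbp3 were highest in relative terms, by 2.15 ± 0.26 and 2.08 ± 0.36 (SE) on the log2 scale. Gbp2 in siCtrl at 24 h was at 0.135 and 0.466 CPM in NucleoSpin and 2.24 CPM in TRIzol. Zbp1 (1.34), Psmb10 (1.15), Parp14 (1.03), Ddx58 (0.97), Irf1 (0.81) and Tapbp (0.68) were also higher. H2-K1, H2-D1 and B2m were lower, by -0.48, -0.44 and -0.45, as were Ifih1, Nlrc5, Ifit2 and Stat2. Des and Myod1 differed in the same contrast, by -3.52 and -1.82, and their part in these values was not tested.

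**Figure D5:**
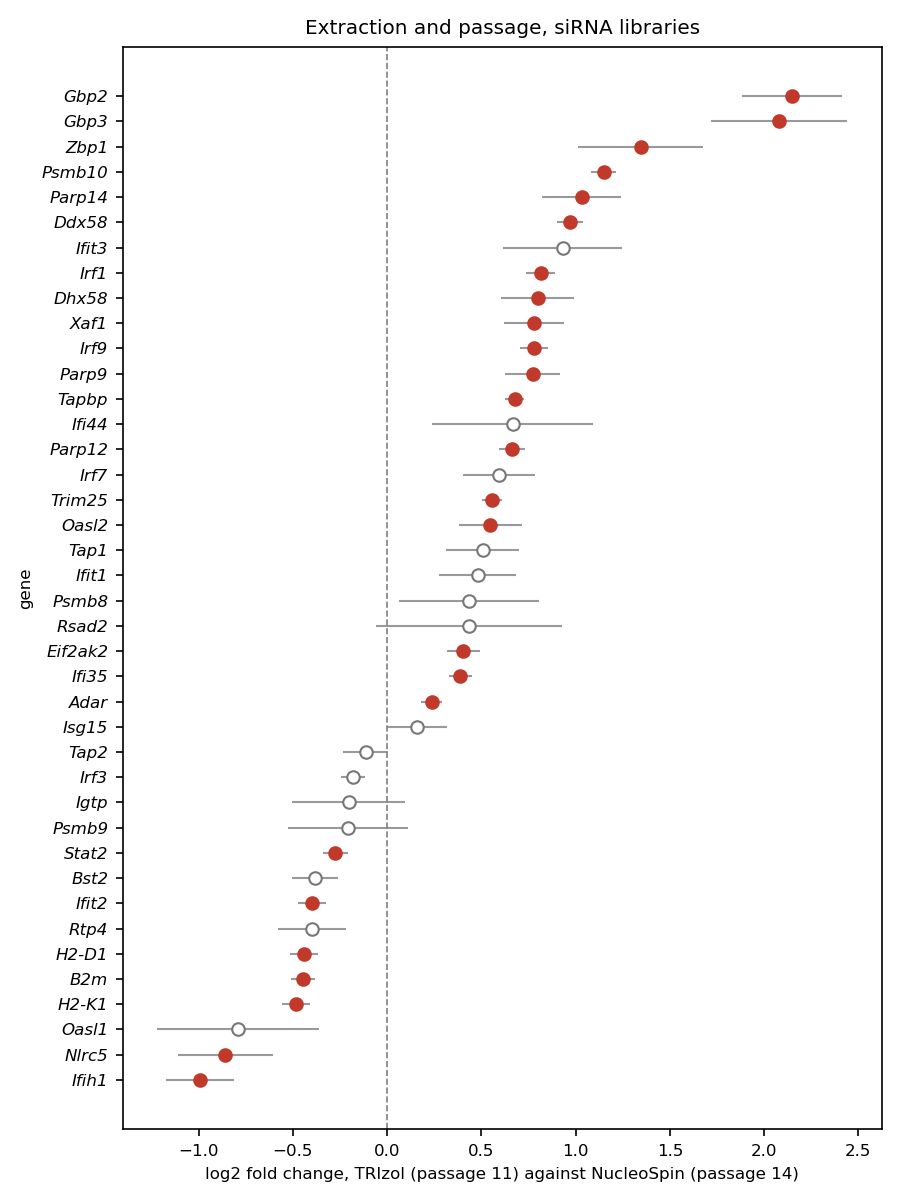
Log2 fold change ± SE of each tested member between TRIzol (passage 11) and NucleoSpin (passage 14) siRNA libraries; red points passed an adjusted p of 0.01. Gbp2 and Gbp3 lie above 2, and Ifih1 is the lowest at -0.99.

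Other genes of the pathway made up a second list of 52, of which 36 were tested in the siRNA libraries. Against siCtrl at 0 h, 1 was called with siSMYD3#1, with 1.43% of all genes, and 0 with siSMYD3#2, with 0.531%. There 8 and 6 passed at an unadjusted p under 0.05. Against siCtrl at 24 h, 3 were called with siSMYD3#1, with 5.85% of all genes, and 1 with siSMYD3#2, with 3.7%. There 13 and 14 passed at an unadjusted p under 0.05. Sting1, the adaptor of cytosolic DNA sensing, was lower with siSMYD3#1 at 0 h (-0.57) and 24 h (-0.74). Erap1, which trims peptides for class I, was higher at 24 h with both siRNAs (0.46 and 0.79), and the class I-like H2-T23 was higher with siSMYD3#1 (0.78). From 0 h to 24 h 10 of the 36 rose and 5 fell in siCtrl, 15 rose and 6 fell in siSMYD3#1, and 7 rose and 4 fell in siSMYD3#2, where 29.4%, 25.4% and 19% of all genes were called. In siCtrl the chemokine Ccl5 rose by 2.33 and the DNA sensor Cgas fell by 1.40 on the log2 scale.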

How the data were processed

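RNA-seq was made from 26 libraries. Reads were aligned to GRCm38 with HISAT2 2.1.0 and counted per gene with featureCounts (Subread 1.6.3), after FastQC 0.11.5, per the submitters' processing notes. The deposited values are raw counts, which the authors made per Ensembl gene. Strand setting, treatment of multiply mapped reads and annotation release are not given in the sources used here. On GENCODE M21, 5 members share exon bases with another gene on the same strand and 17 with one on the opposite strand, and the classical H2 genes are near-identical in parts, so these counts are uncertain where reads could be split.

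Counts were tested with edgeR 4.0.16 (R 4.3.3; TMM scaling, filterByExpr, robust quasi-likelihood F test, Benjamini-Hochberg adjustment over all genes, threshold 0.01). The 18 siRNA libraries were fitted with group and extraction (15820 genes), the 8 stable libraries with group (17835 genes), and siCtrl against vector in all 26 with extraction (17479 genes). The SE is the fold change divided by the root of F. Of the 47 members, 40, 39 and 43 passed the low-count filter. A member can pass through the group in which it is high. Levels are CPM with TMM-scaled totals over all libraries. Alternatives used DESeq2 1.42.0, median-ratio factors, no filter, a threshold of 0.05, other covariates, NucleoSpin libraries only, 1 fit of all libraries and leaving out each library. Scripts were tested on simulated data. The members and lists were chosen with earlier results of these data known. By rule, members past the threshold in an siRNA or CL5 comparison (at most the 12 largest changes) and those with the 5 highest levels per kb were named with values, and others by count. Further members given per library, such as Stat2, Ifit3 and Oasl1, were chosen after their values were seen. The labels give no replicate numbers. A gene of the pathway list is not reported here.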

Additional observations from a re-analysis of the deposited data

How the results depend on the processing

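Counts are of members called, and the causes of the changes below were not tested except where fewer samples enter. Under DESeq2, siSMYD3#1 and siSMYD3#2 against siCtrl at 24 h gave 2 and 2, siSMYD3#1 against siSMYD3#2 at 24 h gave 1, CL5 against vector gave 3 at 0 h and 1 at 24 h, vector at 24 h against 0 h gave 1, and siCtrl against vector at 24 h gave 4. Without the low-count filter the same siRNA comparisons at 24 h gave 3 and 3, siSMYD3#1 against siSMYD3#2 at 0 h gave 0, CL5 against vector gave 3 and 1, and siCtrl against vector at 24 h gave 4. At a threshold of 0.05 the 24 h siRNA comparisons gave 3 and 5, siSMYD3#1 against siSMYD3#2 at 24 h gave 1, CL5 against vector at 0 h gave 1, and siCtrl against vector gave 10 and 7. Without extraction in the fit, siSMYD3#2 against siCtrl gave 0 at 0 h and 0 at 24 h, siSMYD3#1 against siSMYD3#2 at 0 h gave 0, and 24 h against 0 h gave 3, 6 and 3 in siCtrl, siSMYD3#1 and siSMYD3#2. With NucleoSpin libraries only, the 24 h siRNA comparisons gave 2 and 2 and siSMYD3#1 against siSMYD3#2 at 24 h gave 1. In 1 fit of all 26 libraries, siSMYD3#2 against siCtrl gave 0 and 0, siSMYD3#1 against siSMYD3#2 at 0 h gave 0, 24 h against 0 h gave 5 in siCtrl and 8 in siSMYD3#2, and CL5 against vector gave 7 at 0 h and 1 at 24 h. With TRIzol libraries only, chosen after seeing the data, siCtrl against vector gave 0 and 0, with 1 siCtrl library a time point. Median-ratio size factors moved none of the 19 counts by over 1.5 times.

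Leaving out each library in turn gave 0 to 1 for siSMYD3#1 against siCtrl at 24 h, 0 to 1 and 0 to 2 for siSMYD3#2 against siCtrl at 0 h and 24 h, 11 to 20 for siSMYD3#2 at 24 h against 0 h, 0 to 1 for siSMYD3#1 against siSMYD3#2 at 0 h, 0 to 4 for CL5 against vector at 0 h, and 1 to 5 and 1 to 2 for siCtrl against vector at 0 h and 24 h. Where that leaves 1 library in a stable group, it is assumed to vary like the other groups. No named gene reversed direction. Replicate numbers come only from the study's sample list. Same-numbered deviations correlated at 0.628 to 0.688 in the siRNA groups but at 0.017 to 0.134 within NucleoSpin, and at 0.154 and -0.083 in the stable lines, so the numbers follow extraction and do not otherwise pair the samples. With the replicate block, siSMYD3#1 against siSMYD3#2 at 0 h gave 0, siCtrl at 24 h against 0 h gave 9 and siSMYD3#2 gave 18. With 2 libraries a group, the stable lines had larger errors than the siRNA groups, and members under the floor of 3 counts could not be resolved.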
